A study of Mus musculus with 12 samples.

Results

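The 9 genes described here encode the D-type cyclins (Ccnd1, Ccnd2 and Ccnd3), the CIP/KIP inhibitors p21 (Cdkn1a), p27 (Cdkn1b) and p57 (Cdkn1c), and the INK4 inhibitors of the Cdkn2a, Cdkn2b and Cdkn2c genes. They were chosen by name: every non-control probe of the array whose gene name is one of the 9 was taken, and each gene was read by whichever of its probes was brightest on average. All 9 genes were found, with 15 probes, among 31741 genes or unnamed probes on the array, and all 9 passed the filter on dim probes, as did 22319 genes in all.

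D-type cyclins bind CDK4 and CDK6 and start the phosphorylation of the retinoblastoma proteins, which releases E2F transcription factors and lets a cell enter S phase. INK4 proteins bind CDK4 and CDK6 and keep the D cyclins off, and CIP/KIP proteins bind cyclin and CDK complexes, chiefly those of CDK2. In the developing brain Ccnd1 and Ccnd2 are the D cyclins of neural progenitors, p27 and p57 rise as progenitors leave the cycle, and embryonic stem cells cycle fast with little of most of these inhibitors.

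All samples derive from mouse embryonic stem cells (mESC) of the C57BL/6 strain with an actin-eGFP transgene, which had been kept on mouse fibroblasts that were removed before differentiation. After 4 days as embryoid bodies and 6 days of selection in ITSFn medium, step 4 cells grew for 5 days with the mitogen bFGF at 10 ng/ml, and step 5 cells then spent 7 days without bFGF and with ascorbic acid at 200 µM. At each step control cells, which were not enriched, stood against cells that magnetic sorting had enriched for PSA-NCAM, the polysialylated neural cell adhesion molecule. Each of these 4 groups had 3 biological replicates. Dead cells were removed before the enrichment, and the labels do not say whether sorting preceded or followed the 7 days of step 5. Each of the 12 arrays paired a sample in Cy5 with one common mESC RNA in Cy3, with 0 dye swaps, so a level below is a log2 ratio to mESC and a difference is one between such ratios. Replicates 1, 2 and 3 of every group lay on slides 1, 2 and 3.

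The cultures were mixed. Pou5f1, which encodes the pluripotency factor Oct4, lay at -0.86 to -0.50 in the control cells and at -4.94 to -2.89 in the enriched cells. The summed signal of 14 proliferation genes, as the log2 ratio of summed Cy5 to summed Cy3, lay at -0.42 to -0.31 in step 4 control cells, -1.19 to -0.84 in step 4 enriched, -0.95 to -0.19 in step 5 control and -2.0 to -1.70 in step 5 enriched cells. That of 11 neuron genes lay at -0.26 to 1.46, 0.86 to 2.79, -0.19 to 0.93 and 2.44 to 2.53 in the same order, and that of 11 fibroblast and mesenchyme genes at 3.40 to 3.75, 3.56 to 4.81, 4.37 to 5.88 and 5.49 to 5.75. For 10 neural stem and radial glia genes it was 2.04 to 3.29, 4.32 to 4.62, 1.77 to 2.67 and 3.54 to 4.17. For 7 astrocyte genes it was -0.87 to 1.47, 2.52 to 3.86, -0.76 to 2.22 and 3.96 to 4.73. For 9 oligodendrocyte lineage genes it was -0.69 to -0.30, -0.10 to 0.43, -0.25 to 0.91 and 2.61 to 3.46. For 9 endoderm and epithelium genes it was 1.45 to 3.53, 0.75 to 2.50, 1.14 to 3.79 and -2.60 to 1.14. All 14 proliferation, all 11 neuron and all 11 mesenchyme genes were above background on every array, so RNA of the proliferation, neuron and mesenchyme lists was present in every group. Step 4 enriched replicate 1 stood apart from the other 2 arrays of its group in the neuron list and in several of the 9 genes. Without it the step 4 difference between enriched and control cells was 0.21 for Ccnd1 (adjusted p = 0.728), 0.25 for Cdkn1a (adjusted p = 0.793), 0.21 for Cdkn2b (adjusted p = 0.75) and -0.83 for Cdkn2a (adjusted p = 0.205), where all arrays gave 0.82, 0.90, 0.76 and -0.25, and none of these passed. In such bulk samples fewer cells of a type and less RNA per cell cannot be told apart. The part of the cell mixture in the results on the 9 genes was not tested.

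The 9 brightest probes were all well above background in both channels on all 12 arrays, and no probe had most of its spots saturated on any array. On mm9, the build of the array files, they lie at chr7:152116202-152116261 (Ccnd1, minus strand), chr6:127098696-127098755 (Ccnd2, minus), chr17:47736579-47736638 (Ccnd3, plus), chr17:29237377-29237436 (Cdkn1a, plus), chr6:134875424-134875483 (Cdkn1b, plus) and chr7:150644753-150644812 (Cdkn1c, minus). Those of the INK4 genes lie at chr4:88920405-88920464 (Cdkn2a, minus), chr4:88952276-88952335 (Cdkn2b, minus) and chr4:109333508-109333567 (Cdkn2c, minus), and those of the neighbours Cdkn2a and Cdkn2b are 31.8 kb apart. Which exon or UTR a probe reads was not analysed here. The probe of Cdkn2c was dim, with a Cy5 signal of 137 to 888 and a Cy3 signal of 43.7 to 73.1.

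RefSeq's promoter table, on GRCm38.p6 and not on the build of the arrays, held 10 windows of 250 bases before a start for 6 of the 9 genes. The windows of the inhibitors whose levels passed a test between groups, Cdkn1b and Cdkn2c (for Cdkn2c the upstream one of its pair), and both windows of Cdkn1a, whose probes disagreed, are shown 5′ to 3′ on the gene's strand. Capitals mark the GC box GGGCGG, searched on both strands. They also mark the CCAAT box, named by its letters, and a p53 site, likewise on both strands. No marked match overlaps another.
Cdkn1b, chr6:134920151-134920400, plus strand: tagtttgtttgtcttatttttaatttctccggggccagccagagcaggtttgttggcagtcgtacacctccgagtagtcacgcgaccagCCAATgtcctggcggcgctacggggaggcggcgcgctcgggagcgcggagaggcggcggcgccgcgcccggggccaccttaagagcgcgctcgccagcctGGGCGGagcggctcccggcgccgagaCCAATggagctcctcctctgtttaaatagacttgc
Cdkn2c, chr4:109666757-109667006, minus strand: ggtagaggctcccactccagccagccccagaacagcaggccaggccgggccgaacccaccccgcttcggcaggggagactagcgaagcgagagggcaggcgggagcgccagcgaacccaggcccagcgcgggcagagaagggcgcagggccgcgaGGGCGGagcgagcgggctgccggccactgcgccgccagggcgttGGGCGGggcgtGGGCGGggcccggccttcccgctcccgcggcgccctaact
Cdkn1a upstream start, chr17:29090729-29090978, plus strand: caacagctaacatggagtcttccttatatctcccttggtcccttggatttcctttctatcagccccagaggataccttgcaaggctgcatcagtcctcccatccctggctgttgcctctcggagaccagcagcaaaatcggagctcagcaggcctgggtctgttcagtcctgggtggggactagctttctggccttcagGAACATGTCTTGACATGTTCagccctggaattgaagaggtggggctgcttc
Cdkn1a downstream start, chr17:29093519-29093768, plus strand: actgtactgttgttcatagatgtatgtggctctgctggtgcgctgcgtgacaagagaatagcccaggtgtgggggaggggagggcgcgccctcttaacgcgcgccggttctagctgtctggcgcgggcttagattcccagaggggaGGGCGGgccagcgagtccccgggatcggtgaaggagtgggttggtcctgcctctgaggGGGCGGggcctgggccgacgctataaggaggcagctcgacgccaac

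The window of Cdkn1b held 1 GC box and 2 CCAAT boxes, and the GC-rich window of Cdkn2c (77.2% G or C) held 3 GC boxes. Of all 32851 windows of this length in the table, 32.7% held a GC box and 33.8% a CCAAT box. The upstream window of Cdkn1a held a p53 site, defined as 2 adjoining half-sites with at most 1 of 20 letters off, which starts 51 bases before the transcription start and stood in 0.0761% of all windows. The downstream window of Cdkn1a held none and had 2 GC boxes. The search for the p53 site was added after the windows had been read. An E2F motif (TTTCCCGC, TTTCGCGC, TTTGGCGC or TTTGCCGC, either strand) stood in 1 of the 10 windows, that before the upstream start of Cdkn2a, and in 1.86% of all windows. The E-box CACGTG stood in 0 of the 10 and in 6.02% of all. A match describes the letters and says nothing of binding.

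Ccnd2, a D cyclin of neural progenitors, lay far above mESC in every group. In replicates 1, 2 and 3 its level was 4.31, 3.80 and 4.26 in step 4 control cells and 5.21, 4.83 and 4.51 in step 4 enriched cells. At step 5 it was 3.71, 3.79 and 3.47 in control and 4.26, 4.04 and 3.89 in enriched cells. The enriched arrays stood above the control arrays with no overlap at each step, and the highest group was step 4 enriched. The group means were 17.4-fold (step 4 control), 28.8-fold (step 4 enriched), 12.6-fold (step 5 control) and 16.7-fold (step 5 enriched) above mESC.

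A difference passed where its p from limma, adjusted over all genes by Benjamini-Hochberg, was under 0.05. Ccnd2 was higher in enriched than in control cells at step 4 by 0.73 (SE 0.20, n = 3 per group, adjusted p = 0.0196), or 1.66-fold, with 0.90, 1.04 and 0.25 on slides 1, 2 and 3. At step 5 the difference was 0.41 (SE 0.20, adjusted p = 0.125), with a 95% interval of -0.03 to 0.85, and it did not pass. From step 4 to step 5 Ccnd2 fell by 0.78 in enriched cells (SE 0.20, adjusted p = 0.0436), with -0.95, -0.79 and -0.61 on the slides. In control cells it was -0.47 (adjusted p = 0.536). The difference between the enrichment effects of the steps, -0.32 (SE 0.28, adjusted p = 0.922), did not pass either. The rise at step 4 did not pass under 9 of 27 alternatives: without step 4 control replicate 2 it was 0.56 (adjusted p = 0.0771), without step 4 enriched replicate 1 it was 0.55 (adjusted p = 0.0561), without step 4 enriched replicate 2 it was 0.74 (adjusted p = 0.0531), and without slide 2 it was 0.57 (adjusted p = 0.19). The fall in enriched cells kept its direction under all 27 and did not pass under 18. It was lost, for example, on the deposited table of values (-0.67, adjusted p = 0.0783), without slide 2 (adjusted p = 0.205), and without any 1 of 9 arrays: step 4 control replicates 1 and 3, step 4 enriched replicates 1 and 2, step 5 control replicates 1 and 3, and all 3 step 5 enriched replicates, with values of -0.88 to -0.61 and adjusted p = 0.0547 to 0.148.

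Ccnd1, the other D cyclin of neural progenitors, varied more between replicates. Its level was 2.08 and 1.38 in step 4 control replicates 1 and 3, and its spot on replicate 2 of that group had been marked as an outlier by the scanner software and was left out, so n = 2 there. In the step 4 enriched replicates it was 3.77, 2.02 and 1.86, in step 5 control cells 1.69, 0.69 and 1.24, and in step 5 enriched cells 1.51, 0.67 and 0.70. Replicate 1 was the highest in each group, and by the widest margin among the step 4 enriched cells. All 4 groups lay above mESC, from 1.94-fold in step 5 enriched to 5.85-fold in step 4 enriched cells. All 4 passed, but the calls in the other 3 groups than step 4 enriched were lost without step 4 control replicate 1 (adjusted p = 0.132), without step 5 control replicate 1 or 3 (adjusted p = 0.117 and 0.0822), or without any 1 of the step 5 enriched replicates (adjusted p = 0.192, 0.0592 and 0.0628). Between step 4 and step 5 the enriched arrays did not overlap, with a difference of -1.59 (SE 0.50, adjusted p = 0.0986) that missed the threshold and passed it with the slide, which the replicate number marks, as a block (adjusted p = 0.0117). Enriched cells differed from control cells by 0.82 at step 4 (SE 0.56, adjusted p = 0.3) and by -0.25 at step 5 (SE 0.50, adjusted p = 0.733). With the block the difference at step 4 was 1.04 (adjusted p = 0.0268), and this was the only 1 of 27 alternatives under which it passed, since the slide as a random block gave 0.92 (adjusted p = 0.116). Without step 4 enriched replicate 1 the difference between the steps in enriched cells was -0.98 (adjusted p = 0.173).

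Ccnd3 was the only D cyclin, and the only one of the 9 genes, whose group means all lay below mESC. Its level was -0.97, -0.82 and -0.98 in step 4 control and 0.03, -0.88 and -1.35 in step 4 enriched cells. At step 5 it was -0.69, -1.04 and -0.45 in control and -0.29, -0.99 and -1.30 in enriched cells. The groups overlapped throughout, and their means ran from 0.527 to 0.604 of the mESC level. The calls of Ccnd3 below mESC were lost on leaving out step 4 control replicate 1 or 3 (adjusted p = 0.0524 and 0.0609), step 4 enriched replicate 2 or 3 (adjusted p = 0.0937 and 0.182), any 1 of the step 5 control replicates (adjusted p = 0.0863, 0.158 and 0.0529) or step 5 enriched replicate 3 (adjusted p = 0.0738). Median centring in place of loess ended all 4 calls, with -0.31, -0.28, -0.25 and -0.49 (adjusted p = 0.287, 0.312, 0.39 and 0.0828) in step 4 control, step 4 enriched, step 5 control and step 5 enriched cells, and so did leaving out slide 2 (adjusted p = 0.0875, 0.155, 0.258 and 0.0896). No difference between groups passed, and the differences ran from -0.13 to 0.20. The sign of the step 4 difference, 0.19, turned without step 4 enriched replicate 1, where it was -0.19 (adjusted p = 0.657). The other probe of Ccnd3 was below mESC on 12 of 12 arrays, with -0.04 at step 4 and -0.38 at step 5 for enriched minus control.

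**Figure D1:**
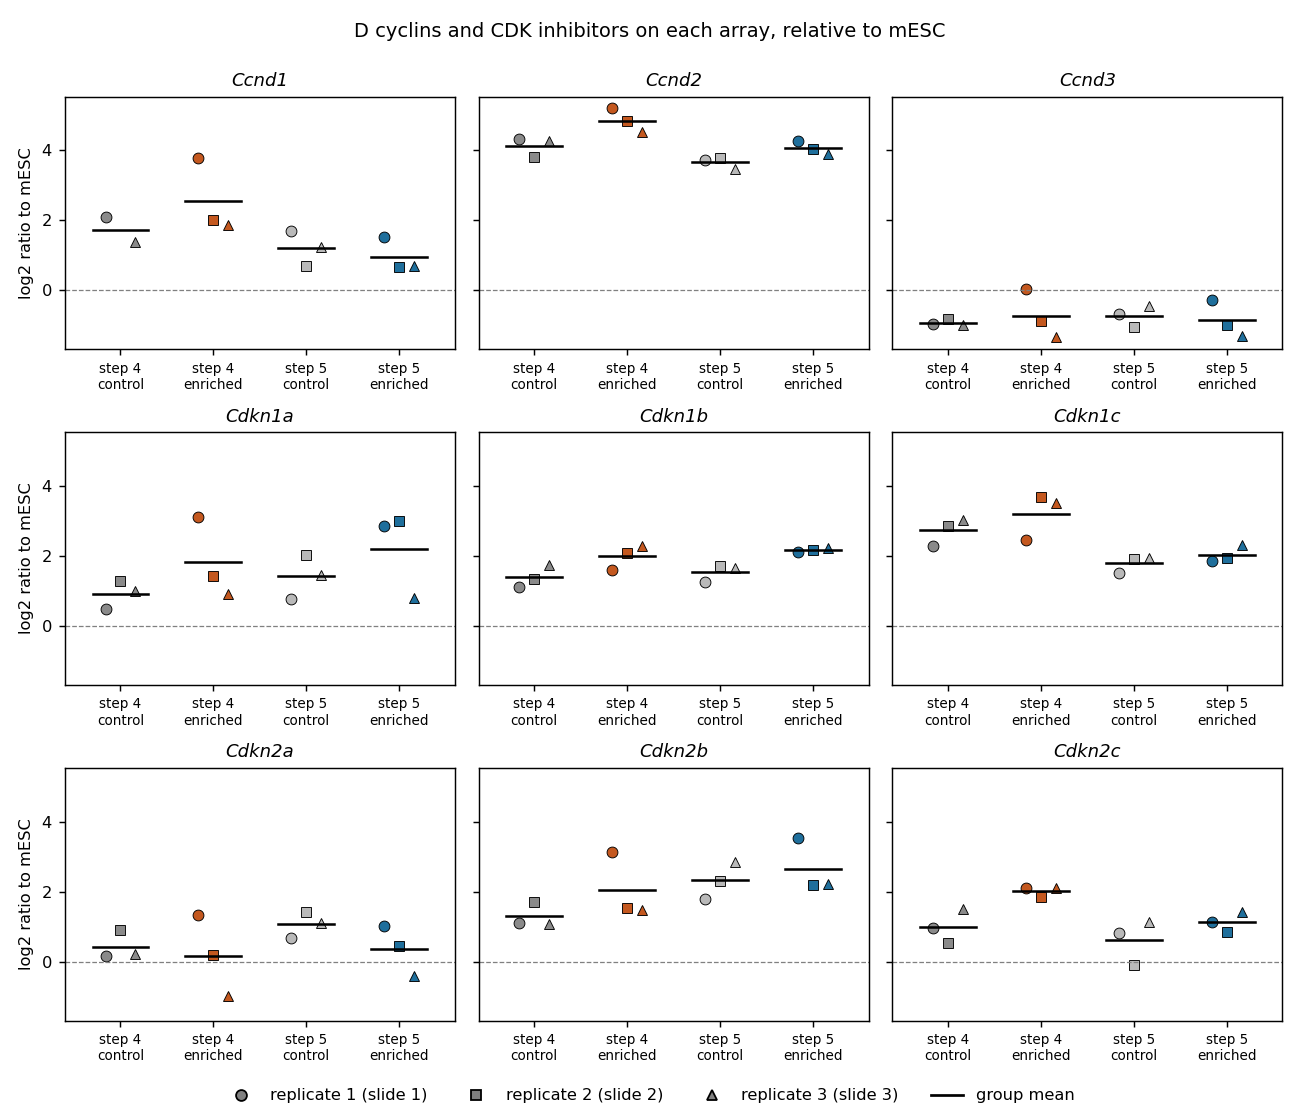
Log2 ratio to mESC (y axis) of each of the 9 genes in the 4 groups (x axis), with 1 symbol per array, its shape giving the replicate and slide, and a bar at the group mean; the dashed line is the mESC level. Ccnd2 lies between 3.47 and 5.21 on all 12 arrays, Ccnd3 between -1.35 and 0.03, and Ccnd1 lacks 1 array.

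Among the CIP/KIP inhibitors Cdkn1b, whose product p27 holds cells out of the cycle, varied little between replicates. Its level was 1.11, 1.35 and 1.74 in step 4 control and 1.60, 2.09 and 2.28 in step 4 enriched cells, which overlap, since enriched replicate 1 lies below control replicate 3. Its step 5 level was 1.25, 1.73 and 1.67 in control and 2.11, 2.18 and 2.24 in enriched cells, which do not overlap. At step 5 it was higher in enriched cells by 0.63 (SE 0.21, n = 3 per group, adjusted p = 0.0359), or 1.54-fold, with 0.86, 0.45 and 0.56 on the slides. At step 4 the difference was 0.59 (SE 0.21, adjusted p = 0.0546), just short of the threshold, with 0.49, 0.75 and 0.54. It passed with the slide as a block (adjusted p = 0.00782) and under 9 of 27 alternatives, among them without step 4 control replicate 3 (0.76, adjusted p = 0.0266), step 4 enriched replicate 1 (0.79, adjusted p = 0.0171) or step 5 control replicate 1 (adjusted p = 0.048). The difference between the steps' effects was 0.03, with a 95% interval of -0.62 to 0.69. The step 5 rise did not pass under 9 of 27, among them any of the 3 step 5 enriched replicates left out (adjusted p = 0.0649, 0.0782 and 0.0961), control replicate 1 (0.47, adjusted p = 0.122), control replicate 3 (adjusted p = 0.0532) and slide 2 (adjusted p = 0.14). From step 4 to step 5 Cdkn1b differed by 0.15 in control and 0.19 in enriched cells, which did not pass. Its dimmer probe gave 0.60 at step 4 and 0.52 at step 5 for enriched minus control.

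Cdkn1c, which encodes p57 and is expressed from the maternal allele of an imprinted cluster, was highest at step 4. Its level was 2.29, 2.87 and 3.04 in step 4 control and 2.45, 3.68 and 3.51 in step 4 enriched cells. At step 5 it was 1.52, 1.93 and 1.95 in control and 1.86, 1.96 and 2.31 in enriched cells. Every step 4 array stood above every step 5 array of the same kind of cell. The group means were 6.64-, 9.29-, 3.49- and 4.12-fold above mESC in the order step 4 control, step 4 enriched, step 5 control and step 5 enriched. Step 5 minus step 4 was -1.17 in enriched cells (SE 0.31, adjusted p = 0.0521) and -0.93 in control cells (SE 0.31, adjusted p = 0.386), so neither passed. In enriched cells it passed with the slide as a block (adjusted p = 0.00822) and without step 4 enriched replicate 1 (-1.55, adjusted p = 0.011). That replicate, at 2.45, was the only step 4 enriched array within the range of the control cells. Without it the difference between enriched and control cells at step 4, 0.48 (adjusted p = 0.267) with all arrays, was 0.86 (adjusted p = 0.0232). Of the 5 tested neighbours in the imprinted cluster or its adjoining domain, Phlda2 and Slc22a18 were lower in enriched cells at step 4, by -1.93 (SE 0.25, adjusted p = 0.000596) and -1.48 (SE 0.35, adjusted p = 0.0108), and none was higher. At step 5 only Phlda2 passed (-1.21, adjusted p = 0.0036), and the other 3 passed at neither step. The 5 genes had a median of -0.19 at each step. Over all genes 31.2% passed at step 4 and 40.5% at step 5. The 2 of 5 at step 4 are thus near the share of all genes, and the 1 of 5 at step 5 is below it.

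Cdkn1a, the p53 target gene whose product p21 inhibits CDK2, varied widely among replicates. Its level was 0.48, 1.28 and 1.01 in step 4 control and 3.12, 1.43 and 0.93 in step 4 enriched cells. At step 5 it was 0.78, 2.02 and 1.47 in control and 2.86, 2.99 and 0.79 in enriched cells. Enriched replicate 1 at step 4 and enriched replicates 1 and 2 at step 5 lay well above every control array of their step, while enriched replicate 3 lay within the control range at both steps. Enriched minus control was 0.90 at step 4 (SE 0.66, adjusted p = 0.334) and 0.79 at step 5 (SE 0.66, adjusted p = 0.375), with 2.64, 0.15 and -0.08 and with 2.08, 0.97 and -0.68 on the slides. Against mESC it passed in step 4 enriched, step 5 control and step 5 enriched cells (3.54-, 2.68- and 4.64-fold, adjusted p = 0.0054, 0.0306 and 0.00147), but not in step 4 control cells (1.89-fold, adjusted p = 0.146). The call in step 4 enriched cells was lost without replicate 1 of that group (1.18, adjusted p = 0.0565), and the call in step 5 control cells without its replicate 2 or 3 (adjusted p = 0.156 and 0.108). The call in step 5 enriched cells passed with any 1 array left out. With the mean over the probes of the gene all 3 calls were lost, with 0.35, 0.24 and 0.30 (adjusted p = 0.329, 0.535 and 0.397).

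These values come from the Cdkn1a probe with 10 spots per array, 1 of which was left out on step 5 control replicate 3. A probe that the files assign to transcript variant 2, at chr17:29227986-29228045 on mm9, lay below mESC on 11 of 12 arrays, from -1.62 to 0.57, and the third probe was above mESC on 6 and below it on 6. Enriched minus control was 0.08 at step 4 and -0.41 at step 5 by the variant 2 probe, where the bright probe gave 0.90 and 0.79. The probes of this gene therefore disagree in sign against mESC, and with the mean over its probes step 5 minus step 4 in enriched cells turned from 0.39 to -0.05. Which of the 2 starts shown above each probe follows was not analysed here.

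Of 19 tested p53 targets outside the 9 genes, 1 was higher and 0 lower in enriched cells at step 4, where 31.2% of all genes passed, with a median of 0.45. At step 5, where 40.5% of all genes passed, 1 was higher and 2 lower, with a median of -0.10. The medians over all genes were 0.010 and -0.009. With slide as a block 3 were higher at step 4, and without both enriched arrays of slide 1 none was (0 of 19). The 31.2% belongs to the fit of all arrays without a block. Plk2 rose at step 4 by 0.78 (SE 0.24, adjusted p = 0.0336). Sesn1, a stress-response gene, rose at step 5 by 1.00 (SE 0.17, adjusted p = 0.0016), while Pmaip1 and Pidd1, which act in cell death, fell by 1.81 (adjusted p = 0.0488) and 1.00 (adjusted p = 0.0378). In enriched cells Sesn1 rose from step 4 to step 5 by 0.76 (adjusted p = 0.03) and Sesn2 fell by 0.83 (adjusted p = 0.0381), the 2 of 19 that passed there, and with slide as a block 1 rose and 3 fell. Over all genes 1435 of 22319 (6.43%) passed between these groups, and 2443 with the block. On step 4 enriched replicate 1, where Cdkn1a was highest, the median level of these 19 genes was 1.22, against 0.57 and 0.24 on the other 2 arrays of the group. On step 5 enriched replicates 1, 2 and 3, with Cdkn1a at 2.86, 2.99 and 0.79, that median was 0.28, 0.64 and -0.02. The medians were -0.01, 0.64 and 0.32 in step 4 control and 0.21, 0.82 and 0.35 in step 5 control replicates. How far they go with Cdkn1a was not tested.

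Of the INK4 genes Cdkn2c, which encodes p18, an inhibitor known in dividing neural progenitors, was higher in enriched cells at step 4. Its level was 0.96, 0.54 and 1.51 in step 4 control and 2.10, 1.86 and 2.11 in step 4 enriched cells, with no overlap. Its step 5 level was 0.83, -0.10 and 1.14 in control and 1.15, 0.86 and 1.44 in enriched cells, which overlap. The rise at step 4 was 1.02 (SE 0.32, n = 3 per group, adjusted p = 0.0348), or 2.03-fold, with 1.14, 1.32 and 0.60 on the slides. At step 5 the difference was 0.52 (SE 0.32, adjusted p = 0.221), with a 95% interval of -0.19 to 1.24, and of 27 alternatives it passed only with the slide as a block (adjusted p = 0.0396), while a random block gave 0.52 (adjusted p = 0.106). Step 5 minus step 4 in enriched cells was -0.88 (SE 0.32, adjusted p = 0.142) with no overlap, and passed with the block (adjusted p = 0.0202). The rise at step 4 did not pass under 10 of 27 alternatives, among them any 1 of 5 step 4 arrays left out: control replicate 1 (adjusted p = 0.0832), control replicate 2 (0.79, adjusted p = 0.13) and enriched replicates 1, 2 and 3 (adjusted p = 0.0743, 0.0652 and 0.0961). On the scanner software's own log ratio, which adds no offset to this dim probe, it was 1.39 (adjusted p = 0.0591).

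Cdkn2b, which encodes p15, an inhibitor induced by TGF-beta, lay above mESC on 12 of 12 arrays. Its level was 1.12, 1.71 and 1.07 in step 4 control, 3.15, 1.54 and 1.48 in step 4 enriched, 1.81, 2.32 and 2.86 in step 5 control and 3.53, 2.20 and 2.24 in step 5 enriched cells. Step 5 control arrays stood above step 4 control arrays without overlap, but the difference of 1.03 (SE 0.50, adjusted p = 0.618) did not pass. The enriched groups were each led by replicate 1. Enriched minus control was 0.76 at step 4 (SE 0.50, adjusted p = 0.276) and 0.33 at step 5 (SE 0.50, adjusted p = 0.637), and the latter turned to -0.11 without step 5 enriched replicate 1. The group means were 2.46-, 4.15-, 5.03- and 6.32-fold above mESC in the same order of groups, and the first of these missed the threshold when step 4 control replicate 2 was left out (adjusted p = 0.0892).

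Cdkn2a encodes p16 and, from another first exon and reading frame, p19Arf, which stabilizes p53. Its level was 0.16, 0.92 and 0.23 in step 4 control, 1.33, 0.19 and -0.98 in step 4 enriched, 0.68, 1.42 and 1.12 in step 5 control and 1.02, 0.46 and -0.40 in step 5 enriched cells. Its levels lay on both sides of mESC in the enriched groups, and it passed against mESC only in step 5 control cells (2.11-fold, adjusted p = 0.0389). That call did not hold under 10 of 27 alternatives, among them without step 5 control replicate 1, 2 or 3 (adjusted p = 0.0607, 0.162 and 0.128), step 4 control replicate 3 (adjusted p = 0.051), step 4 enriched replicate 2 (adjusted p = 0.054) or step 5 enriched replicate 2 (adjusted p = 0.0531). Enriched minus control was -0.25 at step 4 (SE 0.53, adjusted p = 0.754) and -0.71 at step 5 (SE 0.53, adjusted p = 0.316), positive on slide 1 (1.17 and 0.34) and negative on slides 2 and 3 at both steps. Both probes of the gene carry the accession of the same transcript in the files, and whether they read p16 or p19Arf RNA was not analysed here.

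**Figure D2:**
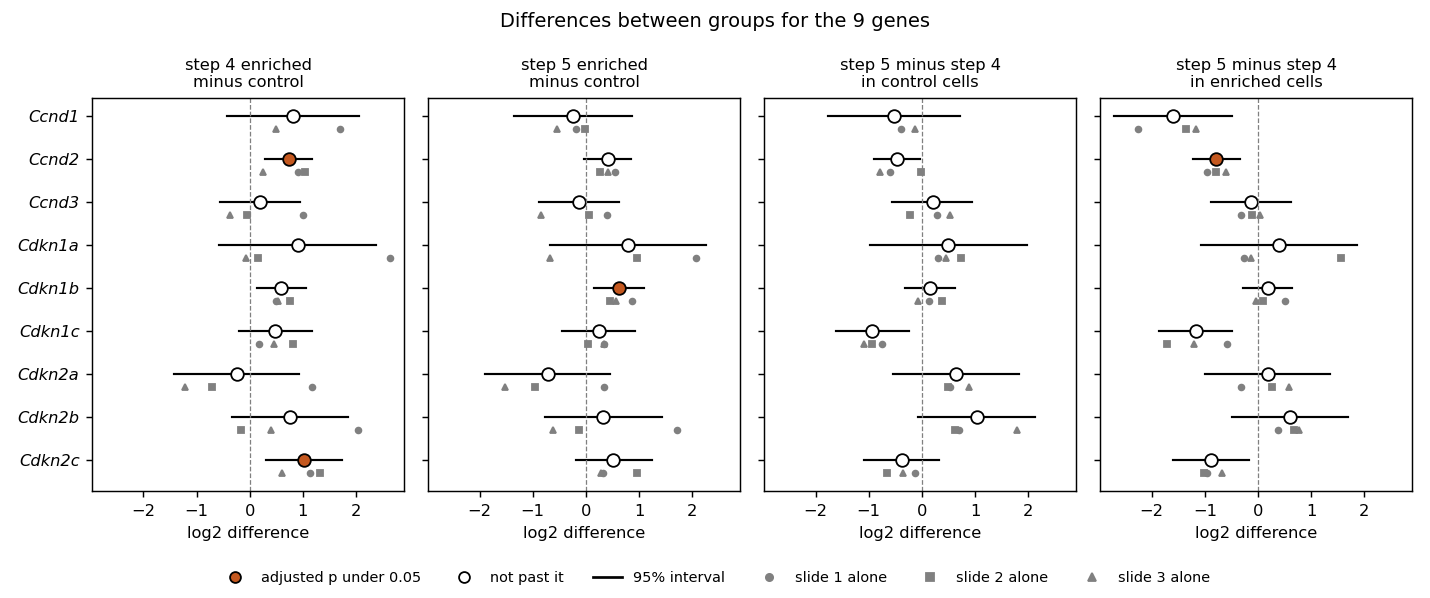
Log2 differences between groups (x axis) of the 9 genes (y axis) in 4 comparisons, as the fitted value with its 95% interval, filled where the adjusted p was under 0.05, and the difference on each slide alone below it in grey. The filled points are Ccnd2 and Cdkn2c at step 4, Cdkn1b at step 5 and the fall of Ccnd2 in enriched cells; slide 1 lies to the right of slides 2 and 3 for Cdkn1a, Cdkn2a and Cdkn2b in the first 2 panels.

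The comparisons between groups share arrays with one another. Counted over the 9 genes, 2 were higher and 0 lower in enriched cells at step 4, where 31.2% of all 22319 genes passed (15% higher and 16.2% lower), with a median difference of 0.73 over the 9 and 0.010 over all genes. At step 5 the count was 1 higher and 0 lower, where 40.5% of all genes passed (20.3% higher and 20.2% lower), with medians of 0.33 and -0.009. As shares of the 9 these counts are 22.2% and 11.1%, both below the share of all genes that passed. From step 4 to step 5 in enriched cells 0 rose and 1 fell, where 6.43% of all genes passed (3.96% higher and 2.47% lower). That background moved with the fit: 1435 genes passed, and 2443 with slide as a block, where Ccnd1, Cdkn1c and Cdkn2c passed too. In control cells none of the 9 passed, and neither did any other gene (0% of 22319, with 1918 at an unadjusted p under 0.05 by limma). The difference between the enrichment effects passed for 0 of 9 and for 0% of all genes, with 1575 at an unadjusted p under 0.05. It was above 0 for 1 of the 9, Cdkn1b, and below 0 for 8, with a median of -0.32 beside -0.013 over all genes.

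Against mESC, 6 of the 9 were higher and 1 lower in step 4 control cells, where 38.8% of 22450 genes passed (21.4% higher and 17.4% lower). In step 4 enriched cells 7 were higher and 1 lower (66.9% of all genes, 35.4% higher and 31.5% lower). In step 5 control cells 8 were higher and 1 lower (44.6% of all genes, 25.7% higher and 19% lower), and in step 5 enriched cells 7 were higher and 1 lower (71.4% of all genes, 38.3% higher and 33.1% lower). The lower gene was Ccnd3 in each group. Ccnd1, Ccnd2, Cdkn1b, Cdkn1c, Cdkn2b and Cdkn2c passed as higher in all 4 groups. Of these, Ccnd2, Cdkn1b and Cdkn1c passed in all 4 groups under all 27 alternatives. Cdkn2c in step 5 control cells (1.54-fold, adjusted p = 0.0455) did not pass under 15 of 27, among them those that leave out step 5 control replicate 1 or 3 (adjusted p = 0.186 and 0.303), step 4 control replicate 1 (adjusted p = 0.0591), any 1 of the step 4 enriched replicates (adjusted p = 0.0571, 0.0593 and 0.0589) or any 1 of the step 5 enriched replicates (adjusted p = 0.0591, 0.053 and 0.0524). In step 4 control cells Cdkn2c did not pass without replicate 3 (adjusted p = 0.0579). All 4 of these comparisons share the mESC reference, which is 1 common RNA, so their p-values from limma hold no spread between mESC cultures. With 0 dye swaps, a dye effect on a gene cannot be told apart from a difference to mESC under any of the alternatives.

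Replicate 1 of the enriched groups stood apart for several of the 9 genes. On step 4 enriched replicate 1, Ccnd1, Ccnd2, Ccnd3, Cdkn1a, Cdkn2a and Cdkn2b each stood above both other arrays of their group, while Cdkn1b and Cdkn1c stood below them. Across the arrays, the deviations from the group means of the 5 of these other than Ccnd2 correlated at r = 0.44 to 0.90 in their 10 pairs, those of Ccnd2 with the 5 at 0.37 to 0.68, and those of Cdkn1b and Cdkn1c with each other at 0.88 (12 arrays, or 11 with Ccnd1, which share slides and reference). These genes were put together for where they stood on that array, so the correlations only describe them. Cdkn1c and Ccnd1 deviated in opposite directions (r = -0.90). On that array the summed signal of the neuron list lay at 0.86 against 2.46 and 2.79 on the other 2. That of the fibroblast and mesenchyme list lay at 4.81 against 4.12 and 3.56. The median log2 ratio of the mesenchyme list was instead lowest there, at 3.45 against 3.61 and 3.90. Col1a1, a collagen gene of mesenchyme, lay at 7.04 against 5.32 and 4.66. Dcx, a gene of young neurons, lay at 3.77 against 6.17 and 6.38. At step 5 the summed signal on enriched replicate 1 was 2.53 against 2.44 and 2.49 for neurons and 5.49 against 5.75 and 5.68 for mesenchyme. The summed signal of the endoderm and epithelium list was -2.60 on that array against 1.14 and 1.02. By the median log2 ratio of this list the values were -0.83 against 1.99 and 0.04, with replicate 2 furthest from the others. Dcx lay at 5.00 on enriched replicate 1 against 5.65 and 6.03. Among the 3 step 5 enriched arrays, Ccnd1, Ccnd2, Ccnd3, Cdkn2a and Cdkn2b were highest on replicate 1, and Cdkn1b and Cdkn1c lowest. Some of this order held in the control groups of steps 4 and 5 too. There replicate 1 was lowest for Cdkn1b (1.11 and 1.25) and Cdkn1c (2.29 and 1.52), and highest for Ccnd1 (2.08 and 1.69). For Cdkn1a (0.48 and 0.78) and Cdkn2a (0.16 and 0.68) control replicate 1 was instead the lowest. For Ccnd2, Ccnd3 and Cdkn2b it was not at the same end in both control groups. The raw Cy3 signal of Ccnd2, from mESC RNA common to all arrays, was 759 on step 4 enriched replicate 1 and 125 to 287 on the other 11 arrays. Its Cy5 signal was also highest on that array, at 61000. Ccnd1 was likewise highest there in both channels, at 49600 in Cy5 and 1740 in Cy3. The part of these measures in the results was not tested. With both enriched arrays of slide 1 left out, the rise of Ccnd2 at step 4 was 0.55 (adjusted p = 0.0579), that of Cdkn2c 0.98 (adjusted p = 0.0944), that of Cdkn1b 0.79 (adjusted p = 0.0243) and that of Cdkn1c 0.86 (adjusted p = 0.0287).

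The partners of these genes in the G1/S machinery were taken from lists of named genes. Of 11 other G1/S kinases, cyclins and activators, 1 was higher and 6 lower in enriched cells at step 4 (median -0.42), and 0 were higher and 5 lower at step 5 (median -0.53). Beside them 31.2% and 40.5% of all genes passed at these steps, so that the 5 of 11 at step 5 are near the share of all genes. With slide as a block 1 was higher and 6 lower at step 5, while the 40.5% belongs to the fit without a block. Cdk4, the kinase partner of the D cyclins, rose at step 4 by 0.85 (SE 0.20, adjusted p = 0.0106), while Cdk6, the other such kinase, stood at 0.14 (adjusted p = 0.54) and is named here after its value was seen. Cdc25a, the phosphatase that activates CDK2, fell by 1.04 (SE 0.19, adjusted p = 0.00329), and Mnat1 and Cdk7 of the CDK-activating kinase fell by 0.96 (adjusted p = 0.00146) and 0.70 (adjusted p = 0.0352). At step 5 Cdc25a fell by 1.67 (SE 0.19, adjusted p = 0.000185), the S-phase cyclin gene Ccna2 by 1.43 (SE 0.15, adjusted p = 0.000122) and Mnat1 by 1.15 (SE 0.15, adjusted p = 0.000347), and Cdk4 stood at 0.18 (adjusted p = 0.513). From step 4 to step 5 in enriched cells 4 of the 11 fell and 0 rose, where 6.43% of all genes passed, led by Ccna2 (-1.27, adjusted p = 0.00218), Cdk2 (-0.88, adjusted p = 0.00767) and Cdk4 (-0.81, adjusted p = 0.0408), beside the fall of 0.78 in Ccnd2. The fall of Cdk4 did not pass under 11 of 27 alternatives.

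Downstream of the D cyclins, 2 of 13 genes of the RB family, the E2F factors and their DP partners were higher and 2 lower in enriched cells at step 4 (median -0.09), and 2 were higher and 7 lower at step 5 (median -0.60). Over all genes 31.2% and 40.5% passed at these steps, so the count at step 4 is near the share of all genes. The higher genes were Rb1 and Rbl2, which encode the repressors RB and p130, at step 4 by 0.78 (adjusted p = 0.011) and 0.58 (adjusted p = 0.0237) and at step 5 by 0.86 (adjusted p = 0.005) and 0.57 (adjusted p = 0.0189). E2f4 and E2f1 fell at step 4 by 0.78 (adjusted p = 0.00748) and 0.65 (adjusted p = 0.031). At step 5 the activator gene E2f1 fell by 1.84 (SE 0.20, adjusted p = 0.000149), Tfdp2 by 1.53 (SE 0.24, adjusted p = 0.000945) and E2f7 by 1.1 (SE 0.25, adjusted p = 0.00588). In enriched cells 7 of 13 fell between the steps and 0 rose, where 6.43% of all genes passed. The largest falls were in E2f8 (-1.39, adjusted p = 0.00767), Rbl1 (-1.27, adjusted p = 0.00168) and E2f7 (-1.18, adjusted p = 0.0216). Without both enriched arrays of slide 1 the falls from step 4 to step 5 were 1 of 11 and 1 of 13 genes in these lists, while the lower counts at step 5 stayed at 5 and 7. Without slide 2 the falls were 1 of 11 and 2 of 13, and the counts at step 4 were 1 higher and 2 lower of 11, and 0 higher and 1 lower of 13. Over all genes these falls also dropped, from 551 of 22319 to 171 of 22571 and 113 of 23262 under these settings. Without slide 2 the genes that passed at step 4 dropped from 6953 to 3016. The range of the proliferation list was lowest in step 5 enriched cells. How far the G1/S list and the RB and E2F list go with it was not tested. Of the 14 proliferation genes 9 were lower and 0 higher in enriched cells at step 4 (median -0.80), and 14 lower at step 5 (median -1.56), beside the same 31.2% and 40.5% of all genes. Mki67, one of them and a marker of cycling cells, differed by 0.06 at step 4 (adjusted p = 0.868), with the sign turned under 6 of 27 alternatives, and was lower by -0.83 in enriched cells at step 5 (SE 0.24, adjusted p = 0.0175). None of the 11 or 13 genes passed for a difference between the steps' effects or between the control groups, and neither did any other gene (0% of 22319 in each).

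**Figure D3:**
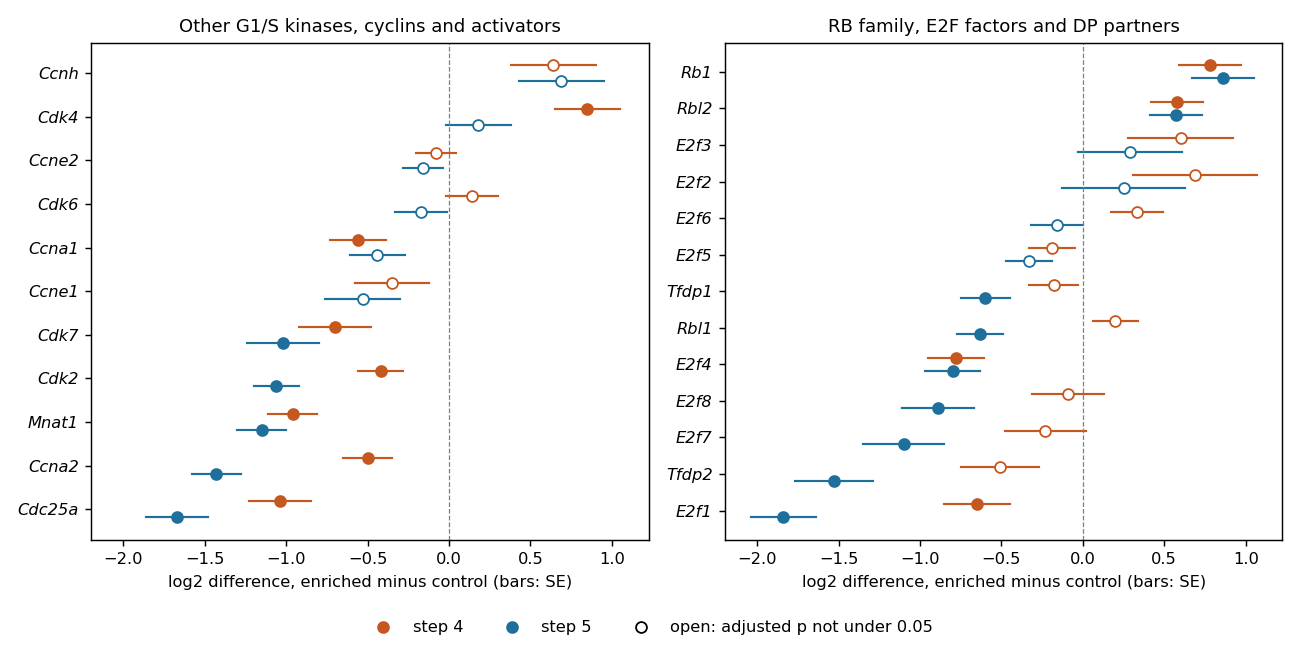
Log2 difference between enriched and control cells (x axis, bars give the SE) of 11 other G1/S genes (left) and 13 RB and E2F genes (right), at step 4 (orange) and step 5 (blue), filled where the adjusted p was under 0.05. Rb1 and Rbl2 are filled to the right of 0 at both steps, and Cdc25a and E2f1 mark the lowest values of step 5, at -1.67 and -1.84.

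Among 20 tested regulators of the D cyclins and the inhibitors, 2 were higher and 6 lower in enriched cells at step 4 (median -0.09), and 4 higher and 8 lower at step 5 (median -0.34), where 31.2% and 40.5% of all genes passed. With slide as a block 6 were higher and 6 lower at step 4, while the 31.2% belongs to the fit without a block. The Polycomb genes Bmi1, whose product represses the Cdkn2a locus, and Cbx8 rose at step 4 by 1.00 (SE 0.14, adjusted p = 0.000779) and 0.60 (SE 0.10, adjusted p = 0.0017). Bmi1 was higher by 0.68 at step 5 (adjusted p = 0.00326), and Cdkn2a itself passed at neither step. The T-box repressor Tbx3 fell by 2.47 at step 4 (SE 0.42, adjusted p = 0.00222) and stood at -3.2 at step 5 (SE 0.42, adjusted p = 0.000349). Klf4 stood at -2.28 (adjusted p = 0.00637) and -2.11 (adjusted p = 0.00601) at these steps, and Mycn at -1.61 (adjusted p = 0.0109) and -1.75 (adjusted p = 0.00505). These 3 genes are also expressed in mESC, and Pou5f1 was lower in the same enriched cells by -3.78 at step 4 (adjusted p = 0.000549) and by -3.35 at step 5 (adjusted p = 0.000545). The part of the cell mixture in the levels of these 3 genes was not tested. Myc and Id1 rose at step 5 by 1.45 (SE 0.46, adjusted p = 0.0301) and 1.37 (SE 0.44, adjusted p = 0.0314). In enriched cells 4 regulators fell between the steps and 0 rose, where 6.43% of all genes passed. Without slide 2 none did (0 of 20), and without both enriched arrays of slide 1 the count was 1 of 21. Over all genes the falls also dropped, from 551 of 22319 to 113 of 23262 and 171 of 22571 under these settings. Among the 4 regulators were Cks1b and Skp2, parts of the ligase that degrades p27, with -1.15 (adjusted p = 0.0125) and -0.95 (adjusted p = 0.039), and Ezh2 with -1.11 (adjusted p = 0.00937).

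Of 5 other inhibitors and CDK-binding genes, 1 was higher and 0 lower at step 4 (median 0.28) and 3 higher and 1 lower at step 5 (median 0.39), beside 31.2% and 40.5% of all genes. Without slide 2 none passed at step 4 (0 of 5), and 0 were higher and 1 lower at step 5, where 3016 and 5785 of all 23262 genes passed. Without both enriched arrays of slide 1, 1 was higher and 1 lower at step 5. Cdkn2d, the fourth INK4 gene, which encodes p19Ink4d and is known in neurons, was higher in enriched cells by 0.75 at step 4 (SE 0.24, adjusted p = 0.0356) and 0.73 at step 5 (SE 0.24, adjusted p = 0.0319). Each of these calls was lost under 8 of 27 alternatives, among them leaving out slide 1 or slide 2. Removing 1 array ended the call in 4 cases at step 4 and 5 at step 5. Cdk5r1, the neuronal activator of CDK5, rose 6.55-fold at step 5 (log2 2.71, SE 0.76, adjusted p = 0.0163) and Ccndbp1 by 0.39 (SE 0.10, adjusted p = 0.0142), while the phosphatase gene Cdkn3 fell by 1.5 (SE 0.28, adjusted p = 0.0021). Between the steps in enriched cells only Cdkn3 passed, and fell by 1.55 (adjusted p = 0.0117), and without both enriched arrays of slide 1 none did (0 of 5). Over all genes 1435 of 22319 passed there, and 652 of 22571 without these arrays. Of the 51 differences of named genes in these 6 lists that passed, 21 passed under all 27 alternatives, 18 were lost by leaving out some 1 array, and none turned its sign. Pmaip1 and Pidd1 at step 5, and Sesn1, Sesn2, Skp2 and Cdk4 from step 4 to step 5, were each lost under 10 or more.

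The named genes whose pattern over the arrays was most like that of a member were found by Pearson's r among 16832 named tested genes, which share slides, dyes and reference with it. For Ccnd1 (11 arrays) they were Il17rd (r = 0.965), 4930429B21Rik and Adgrg2, and for Ccnd2 (12 arrays, as for all below) Rufy4 (0.972), Nkx2-3 and Gm1604b. For Ccnd3 they were Tubb6 (0.912), Crtap and Mpp1. For Cdkn1a they were Prkag3 (0.934), Cldn12 and Clcn2, for Cdkn1b Npepps (0.974), Ehbp1 and Usp32, and for Cdkn1c Adamts6 (0.937), Fezf1 and Dock11. For Cdkn2a they were Tln1 (0.971), Sgms1 and Pls3, for Cdkn2b Efemp2 (0.94), Fas and Rilp, and for Cdkn2c Commd1 (0.974), Lingo4 and Sema5b. Against the marker genes, Cdkn1b and Cdkn2c correlated with Dcx at 0.80 and 0.73 and Cdkn2a at -0.71, while Cdkn2b correlated with Col1a1 at 0.73 and Cdkn1c at -0.73. With Pou5f1 the values were -0.74 for Cdkn1b, -0.69 for Cdkn2c and -0.60 for Ccnd2. No member correlated with Mki67 beyond 0.56, the value of Cdkn1c. These correlations are descriptions over arrays that fall into 4 groups.

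**Figure D4:**
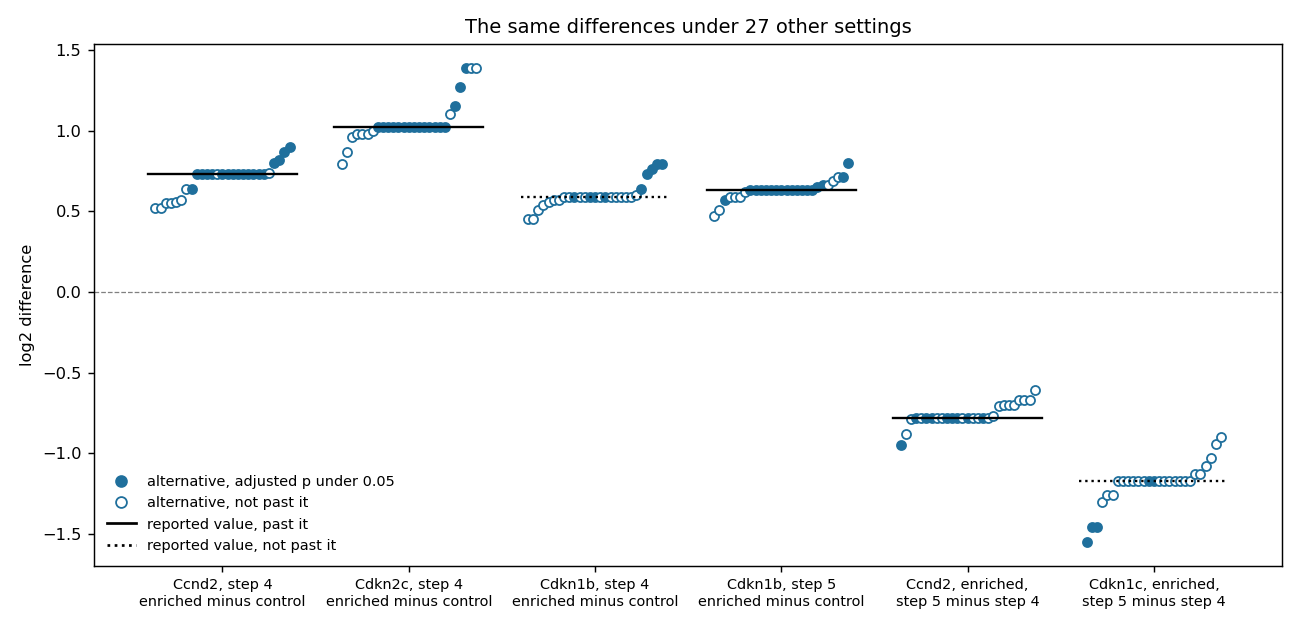
Log2 difference (y axis) of 6 results (x axis) under 27 alternative settings, sorted by value within each result, filled where the adjusted p was under 0.05; the line gives the reported value, dotted where it did not pass. All 6 keep their sign, from 0.52 to 0.90 for Ccnd2 at step 4 and from -0.95 to -0.61 for its fall in enriched cells.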

How the data were processed

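Each array carried a Cy5-labelled sample (100 ng of RNA labelled) and the Cy3-labelled mESC reference, per the labels' protocols, in 4 groups of 3 biological replicates. The deposited scanner files give an intensity per spot and channel, extracted with Agilent Feature Extraction 10.7.3.1 (slides 1 and 3) or 10.5.1.1 (slide 2, scanned on another day), per the file headers. The deposited table of log2 ratios equalled the scanner software's log10 ratio, turned to log2, within 0.001 for 99.3% to 99.5% of probes per array, with a median of 0 per array. Its direction, Cy5 over Cy3, follows from that match.

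Mean signals of 44397 spots per array were corrected with normexp (offset 50) and loess-normalized within arrays in limma 3.58.1 (R 4.3.3). The 1377 control spots and 128 to 298 spots per array marked as outliers were left out. Spots of a probe were averaged, and a gene was read by its brightest probe. Of 39429 probes, 26581 were named by accession, 2597 by symbol and 492 by synonym through the RefSeq table, and 9759 stayed unnamed. A gene was tested between groups (22319 genes) if some group had its probe well above background in Cy5 on each of its arrays. For tests against mESC (22450 genes), a probe well above background in Cy3 throughout was taken as well. The number of arrays limits the precision.

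Group means were fitted in 1 limma model, and the main design had no block. P-values are two-sided and Benjamini-Hochberg adjusted over all genes, with a threshold of 0.05. The replicate number marks the slide in the labels. Deviations of same-slide arrays from their group means correlated at -0.134 to 0.747, over 0.1 in 16 of 18 pairs (consensus correlation 0.222), so the fit with slide as a block is given where it changes a call. Replicates correlated at 0.74 to 0.85 (step 4 control), 0.90 to 0.96 (step 4 enriched), 0.66 to 0.92 (step 5 control) and 0.94 to 0.96 (step 5 enriched).

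The members, gene lists, tests and alternatives were chosen with earlier results of these data known. Of each gene list, up to 3 genes per direction with the largest change past the threshold and 1 sign on all 3 slides are named, with exceptions marked in the text. For each member the 3 named genes of highest correlation are given. Zbtb17 and Kcnq1 did not pass the filter on dim probes. Scripts were tested on simulated data.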

Additional observations from a re-analysis of the deposited data

How the results depend on the processing

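Over 27 alternatives (26 for the difference of effects), of which leaving out slide 1, leaving out both enriched arrays of slide 1 and keeping marked spots were chosen after the data were seen, 2004 of 2178 values of the 9 genes kept their direction and their side of the threshold, 110 fell short of it, 28 passed it and 36 turned sign. None of the 36 belonged to a result that had passed, and their causes were not tested. Of 36 results that had passed, 18 passed under all alternatives. With the mean over probes, step 5 minus step 4 in enriched cells was -0.05 for Cdkn1a, and the difference of effects was -0.02 for Cdkn1b. Without slide 2, step 5 minus step 4 in enriched cells was -0.19 for Cdkn1a, and the difference of effects was 0.03 for Cdkn1c. Without slide 1, the enrichment effect was -0.21 for Ccnd3 at step 4 and -0.37 for Cdkn2b at step 5, the difference of effects 0.11 for Cdkn1a and -0.13 for Cdkn1b, and Cdkn2a stood at -0.39 to mESC in step 4 enriched cells. Without both enriched arrays of slide 1 these were -0.19, -0.11, 0.21, -0.13 and -0.39. With 1 array left out, the effect at step 4 ran from -0.19 to 0.50 for Ccnd3 and from -0.83 to 0.33 for Cdkn2a, and that at step 5 from -0.42 to 0.09 for Ccnd3 and from -0.11 to 0.59 for Cdkn2b. Step 5 minus step 4 in enriched cells ran from -0.43 to 0.25 (Ccnd3), -0.06 to 1.1 (Cdkn1a), -0.01 to 0.33 (Cdkn1b) and -0.40 to 0.75 (Cdkn2a). The difference of effects ran from -0.63 to 0.06 (Ccnd3), -0.56 to 0.60 (Cdkn1a), -0.16 to 0.18 (Cdkn1b), -1.04 to 0.12 (Cdkn2a) and -0.86 to 0.12 (Cdkn2b). Against mESC in step 4 enriched cells Cdkn2a ran from -0.39 to 0.76. Mki67 at step 4 was -0.03 on the scanner's log ratio and the deposited table, -0.08 with median centring, -0.06 to 0.21 with 1 array left out, and -0.02 and -0.03 without slide 2 or slide 1.

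The count of genes past the threshold between the steps in enriched cells was 1435, and it was 2443 with slide as a replicate block, 2542 with a random block, 939 with only the groups compared, 311 without slide 2, 281 without slide 1 and 652 without both enriched arrays of slide 1. In control cells it was 2 on the scanner's log ratio and on the deposited table, 1 with the replicate block and 84 without slide 2. For the difference of effects it was 7 with no background correction, 8 with the mean over probes and 16 with a random block. It was 1 on the scanner's log ratio, on the deposited table, with median centring, without slide 1 and without both enriched arrays of slide 1. Without slide 2 the enrichment counts were 3016 at step 4 and 5785 at step 5. Fitted alone, step 5 control cells against mESC gave 6095. Leaving out 1 array gave 4350 to 7706 genes for enrichment at step 4, 6852 to 9169 at step 5, 0 to 416 between steps in control cells, 445 to 1766 in enriched cells and 0 to 16 for the difference of effects. Against mESC it gave 5774 to 9431 (step 4 control), 13043 to 15488 (step 4 enriched), 7195 to 10080 (step 5 control) and 14532 to 16463 (step 5 enriched). Slide as a replicate block changed no call of the 9 genes between groups other than those given beside the results, and the list counts it moved by 1.5 times or more stand there too. Signal over background limited Cdkn2c in particular, whose mESC signal of 43.7 to 73.1 lay near the offset of 50 added before the log.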
